A study of Mus musculus with 24 samples.

Results

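Forkhead genes are described here by the 4 histone marks that were mapped over them in lung endothelial cells. The set was chosen by symbol, as the protein-coding mm10 genes of chromosomes 1 to 19 named Foxa to Foxs with a number, which 41 of 20665 genes match. Foxf1, Foxc2, Foxl1 and Foxj1 were set apart by the rule, which left 37 genes. Each gene was taken with 5000 bp on either side, and every peak that touched this window by at least 1 bp was assigned to it. The rule reads symbols and positions and no measured value.

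Lung endothelial cells were taken by flow sorting from wild-type mice (WT) and from mice without Dnmt3a (KO), and 24 samples fall into 8 groups of 3, a mark in a genotype. Dnmt3a is a de novo DNA methyltransferase, and the design sets its loss against WT for each mark. The marks were mapped by ACT-seq, in which an antibody guides a loaded transposase that inserts sequencing adapters beside the marked nucleosome, with yeast nuclei added as a spike-in. The values are 8 lists of peaks, 1 for each mark and genotype, with 313065 peaks in all. Each list stands for 3 samples, so no spread between replicates can be given and no genotype difference was tested. The sources used here do not give how or when the gene was deleted, the age of the mice, or whether the 3 samples came from separate animals. Peaks carry a position and a width but no height, so a longer covered stretch is not a measure of a stronger signal, and the depth behind each list is unknown.

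Forkhead proteins are transcription factors that share a winged-helix DNA-binding domain, and they carry different roles in development, metabolism and the cell cycle. FOXA proteins are pioneer factors of the endoderm, FOXO proteins act in the nucleus when signalling from the PI3K and AKT kinases is low, and FOXC and FOXF proteins act in blood vessels and mesenchyme. Many forkhead genes serve a single lineage and are held silent elsewhere under H3K27me3, the mark written by Polycomb repressive complex 2. H3K4me3 lies at active or poised promoters, H3K4me1 at enhancers and promoter flanks, and H3K27ac at active enhancers and promoters.

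The promoters differed widely in CpG content, the dinucleotide that DNA methyltransferases act on. RefSeq starts were matched for 26 of the 37 genes, with 30 starts in all, and the 250 bases upstream of each were read from the reference (GRCm38.p6, the mm10 build). Foxb1, Foxe1, Foxh1, Foxk1, Foxm1, Foxn2, Foxo6, Foxp2, Foxq1 and Foxs1 are among those with no entry in the table. The median was 17.5 CpG (range 3 to 48) in the 250 bases, against 10 over 20085 starts of all genes. The forkhead motif GTAAACA, searched on both strands (TGTTTAC on the other), was in 1 of the 30 stretches (3.33%), that of Foxa1, and in 2.64% of all. Upstream stretches of 4 genes on which the results below turn are printed 5′ to 3′ with CpG in capitals, chosen after the peaks were seen. Foxd1 shows a start with H3K4me3 in the KO list alone, Foxi2 a CpG-poor start under a wide H3K27me3 peak, Foxp4 a gene body with a long KO stretch of H3K27me3, and Foxo1 an active start.
Foxd1: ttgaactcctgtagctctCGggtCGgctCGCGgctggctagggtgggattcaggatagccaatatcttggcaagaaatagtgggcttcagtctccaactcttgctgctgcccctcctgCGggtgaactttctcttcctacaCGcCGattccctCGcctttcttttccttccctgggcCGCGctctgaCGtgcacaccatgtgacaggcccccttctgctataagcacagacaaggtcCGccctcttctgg
Foxi2: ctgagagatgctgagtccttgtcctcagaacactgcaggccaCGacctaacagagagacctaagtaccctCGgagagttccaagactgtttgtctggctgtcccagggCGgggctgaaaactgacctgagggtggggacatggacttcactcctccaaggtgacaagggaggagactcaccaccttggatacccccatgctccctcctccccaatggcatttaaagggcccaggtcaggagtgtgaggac
Foxp4: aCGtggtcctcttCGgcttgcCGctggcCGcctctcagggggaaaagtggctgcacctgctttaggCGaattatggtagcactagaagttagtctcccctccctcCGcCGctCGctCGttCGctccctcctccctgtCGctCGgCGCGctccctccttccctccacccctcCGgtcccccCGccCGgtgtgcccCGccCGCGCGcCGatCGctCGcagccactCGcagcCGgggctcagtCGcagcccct
Foxo1: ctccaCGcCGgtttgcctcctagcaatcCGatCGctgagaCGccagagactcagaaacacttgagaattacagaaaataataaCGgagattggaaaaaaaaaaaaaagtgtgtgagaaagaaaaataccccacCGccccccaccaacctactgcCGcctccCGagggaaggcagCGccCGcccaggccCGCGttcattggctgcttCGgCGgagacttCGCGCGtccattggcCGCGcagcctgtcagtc
The Foxd1 stretch lies at chr13:98353995-98354244 on the plus strand and holds 12 CpG, and that of Foxi2 at chr7:135410117-135410366 on the plus strand holds 3. The Foxp4 stretch lies at chr17:47924633-47924882 on the minus strand with 27 CpG, and that of Foxo1 at chr3:52268087-52268336 on the plus strand with 20.

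H3K27me3 was the mark with the largest ratio between genotypes over the forkhead genes. The peaks covered 45.6 kb in WT and 92.8 kb in KO, a ratio of 2.04, against 1.77 over the windows of all genes. There were 87 WT and 110 KO peaks, a KO share of 55.8% (exact Clopper-Pearson interval 48.6 to 62.9%), against 59.7% in the whole lists. With the longer list reduced to as many peaks as the shorter, the widest first (equal list length below), the KO share was 49.1%. The median width was 398 bp in WT and 663.5 bp in KO, against 358 and 425 bp in the whole lists. Peaks that met a peak of the other genotype covered 43873 bp in WT and 72333 bp in KO, and peaks that met none 1680 and 20419 bp. Of the bases without a WT peak to meet, 7645 bp lay at Foxp4. Of the 29 genes with the mark in either list, 26 had longer coverage in KO (89.7%, interval 72.6 to 97.8%), against 75.9% of all genes with the mark. The 3 others (23.9% of all genes with the mark were longer in WT) were Foxo3 with 1284 bp in WT and 875 bp in KO, Foxh1 with 620 and 574 bp, and Foxn2 with 522 and 484 bp. Over the gene body alone Foxh1 had 196 bp in WT and 203 bp in KO, and Foxn2 117 and 124 bp. Most forkhead genes with the mark therefore carried it over more bases in the KO list, as did most genes in general. The intervals cover counting error only.

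Most H3K27me3 peaks over forkhead genes touched a peak of the other genotype. Of the 87 WT peaks, 80 met a KO peak (92.0%, interval 84.1 to 96.7%), against 75.1% in the whole WT list. Of the 110 KO peaks, 71 met a WT peak (64.5%, interval 54.9 to 73.4%), against 48.6%. When an overlap of at least 50% was asked for, 41.8% of the KO peaks met a WT peak. Among 61 peaks that met exactly 1 partner each, 48 were wider in KO (78.7%, against 70.4% of such pairs genome-wide), with a median KO to WT width ratio of 1.35 against 1.23. A further 8 KO peaks, over 8 genes, each spanned 2 or 3 WT peaks, which is 11.3% of the shared KO peaks (interval 4.99 to 21.0%) against 4.56% in the whole list. Those genes were Foxa2, Foxc1, Foxd3, Foxe3, Foxf2, Foxi2, Foxn4 and Foxq1. At Foxi2, WT peaks of 1012, 298 and 281 bp faced a single KO peak of 3501 bp. The KO peak covered the CpG-poor stretch printed above. The WT peak of 1012 bp, which began at -225 bp from the start, already covered most of that stretch. At Foxd3, a gene of the neural crest, a KO peak of 2290 bp spanned WT peaks of 276, 370 and 360 bp. Separate WT peaks were thus listed as a single KO peak at these genes.

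**Figure D1:**
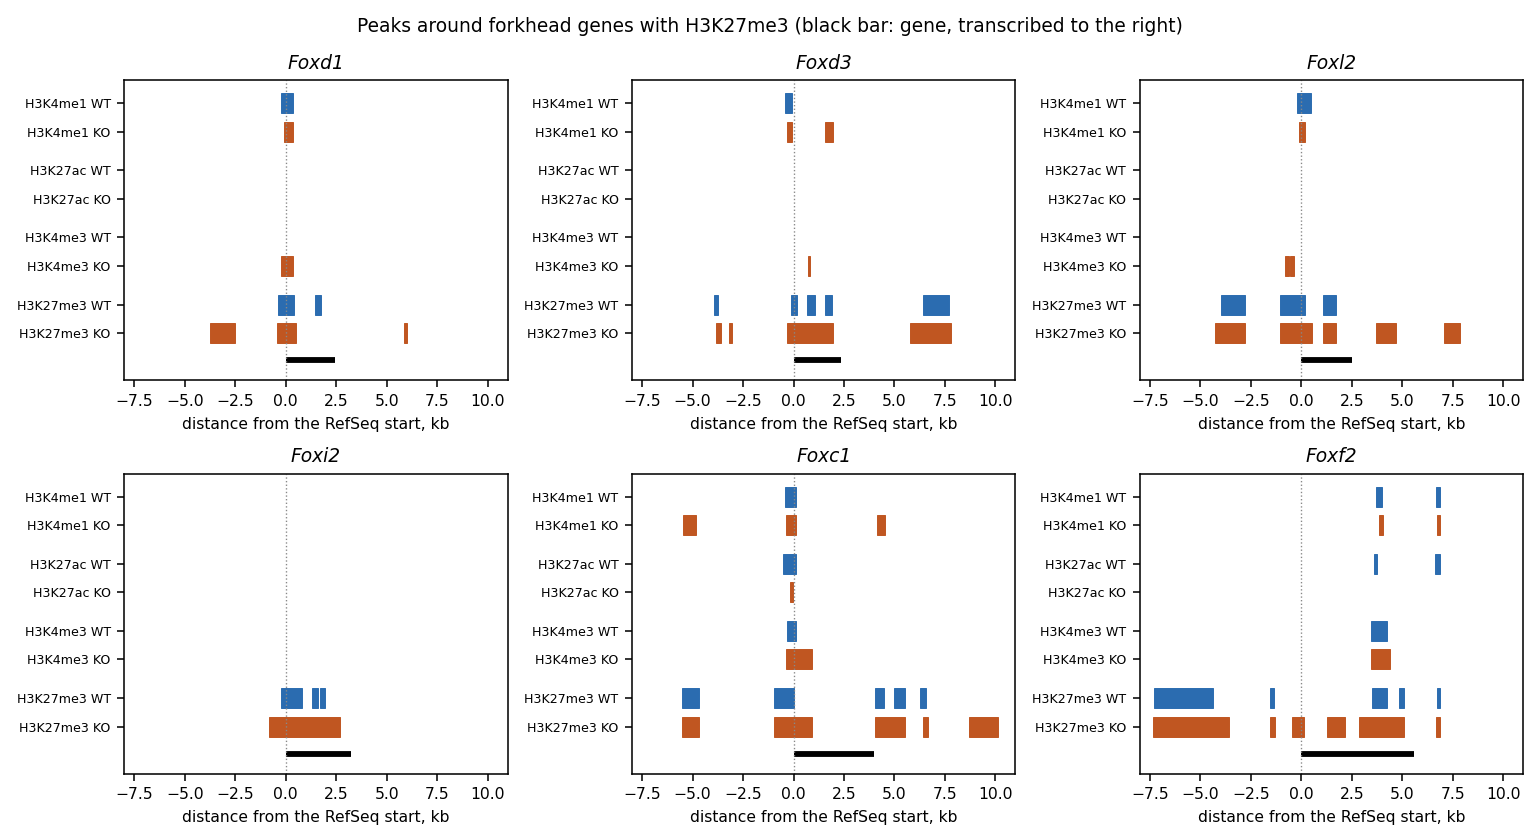
Peaks of the 4 marks in WT and KO over Foxd1, Foxd3, Foxl2, Foxi2, Foxc1 and Foxf2, drawn as bars against distance from the gene start in kb, with every peak that touches the gene or the 5000 bp on either side. The Foxi2 row has 3 H3K27me3 bars in WT and 1 bar of 3501 bp in KO, and H3K4me3 bars over Foxd1, Foxd3 and Foxl2 appear in the KO rows alone.

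H3K4me3 was longer in KO as well. It covered 23983 bp in WT and 40980 bp in KO over the forkhead genes, a ratio of 1.71 against 1.39 over all genes, in 41 WT and 68 KO peaks. The KO share was 62.4% (interval 52.6 to 71.5%), against 60.3% in the whole lists, and 53.4% at equal list length. Coverage was longer in KO at 25 of the 26 genes with the mark (96.2%, interval 80.4 to 99.9%), against 80.0% of all genes with it (19.9% were longer in WT). The other gene, Foxn2, differed by a single base (1732 and 1731 bp). In WT, 33 of the 41 peaks met a KO peak (80.5%, interval 65.1 to 91.2%), against 82.0% in the whole list, while 31 of the 68 KO peaks met a WT peak (45.6%, interval 33.5 to 58.1%, whole list 51.6%). Peaks with a partner covered 22457 bp in WT and 29755 bp in KO, and the 37 KO peaks without one 11225 bp. Of those 37 peaks, 21 lay on a WT H3K4me1 peak (56.8%, whole list 51.5%), 17 on a WT H3K27ac peak (45.9%, whole list 50.0%) and 13 on a WT H3K27me3 peak (35.1%, whole list 20.7%).

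H3K27ac ran the other way. It covered 59.1 kb in WT and 42.2 kb in KO, a ratio of 0.714 against 0.786 over all genes, in 154 WT and 101 KO peaks. The KO share was 39.6% (interval 33.6 to 45.9%), against 35.4% in the whole lists. Coverage was longer in WT at 19 of the 22 genes with the mark (86.4%, interval 65.1 to 97.1%), against 74.8% of all genes with it, and the exceptions were Foxa1, Foxd2 and Foxq1 (25.1% of all genes with it were longer in KO). Foxa1 had 272 bp in WT and 341 bp in KO, but 272 and 0 bp over the gene body alone. Of the 154 WT peaks, 69 met a KO peak (44.8%, interval 36.8 to 53.0%, whole list 37.0%), and 69 of the 101 KO peaks met a WT peak (68.3%, interval 58.3 to 77.2%, whole list 67.5%). The median H3K27ac peak over these genes was 248 bp wide in WT and 313 bp in KO. At equal list length the KO share was 50.2%.

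H3K4me1 had 153 peaks in each genotype, a KO share of 50.0% (interval 44.3 to 55.7%), against 49.5% in the whole lists, over 63.7 kb in WT and 77.5 kb in KO. Coverage was longer in WT at 16 and in KO at 12 of the 28 genes with the mark, against 45.1% and 54.7% of all genes with it. The sum was longer in KO and the count of genes larger for WT, and Foxp1, Foxn3 and Foxo1 alone held 97 of the 153 WT peaks. Of the WT peaks, 112 met a KO peak (73.2%, interval 65.5 to 80.0%, whole list 76.5%), and of the KO peaks 106 met a WT peak (69.3%, interval 61.3 to 76.5%, whole list 75.7%).

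**Figure D2:**
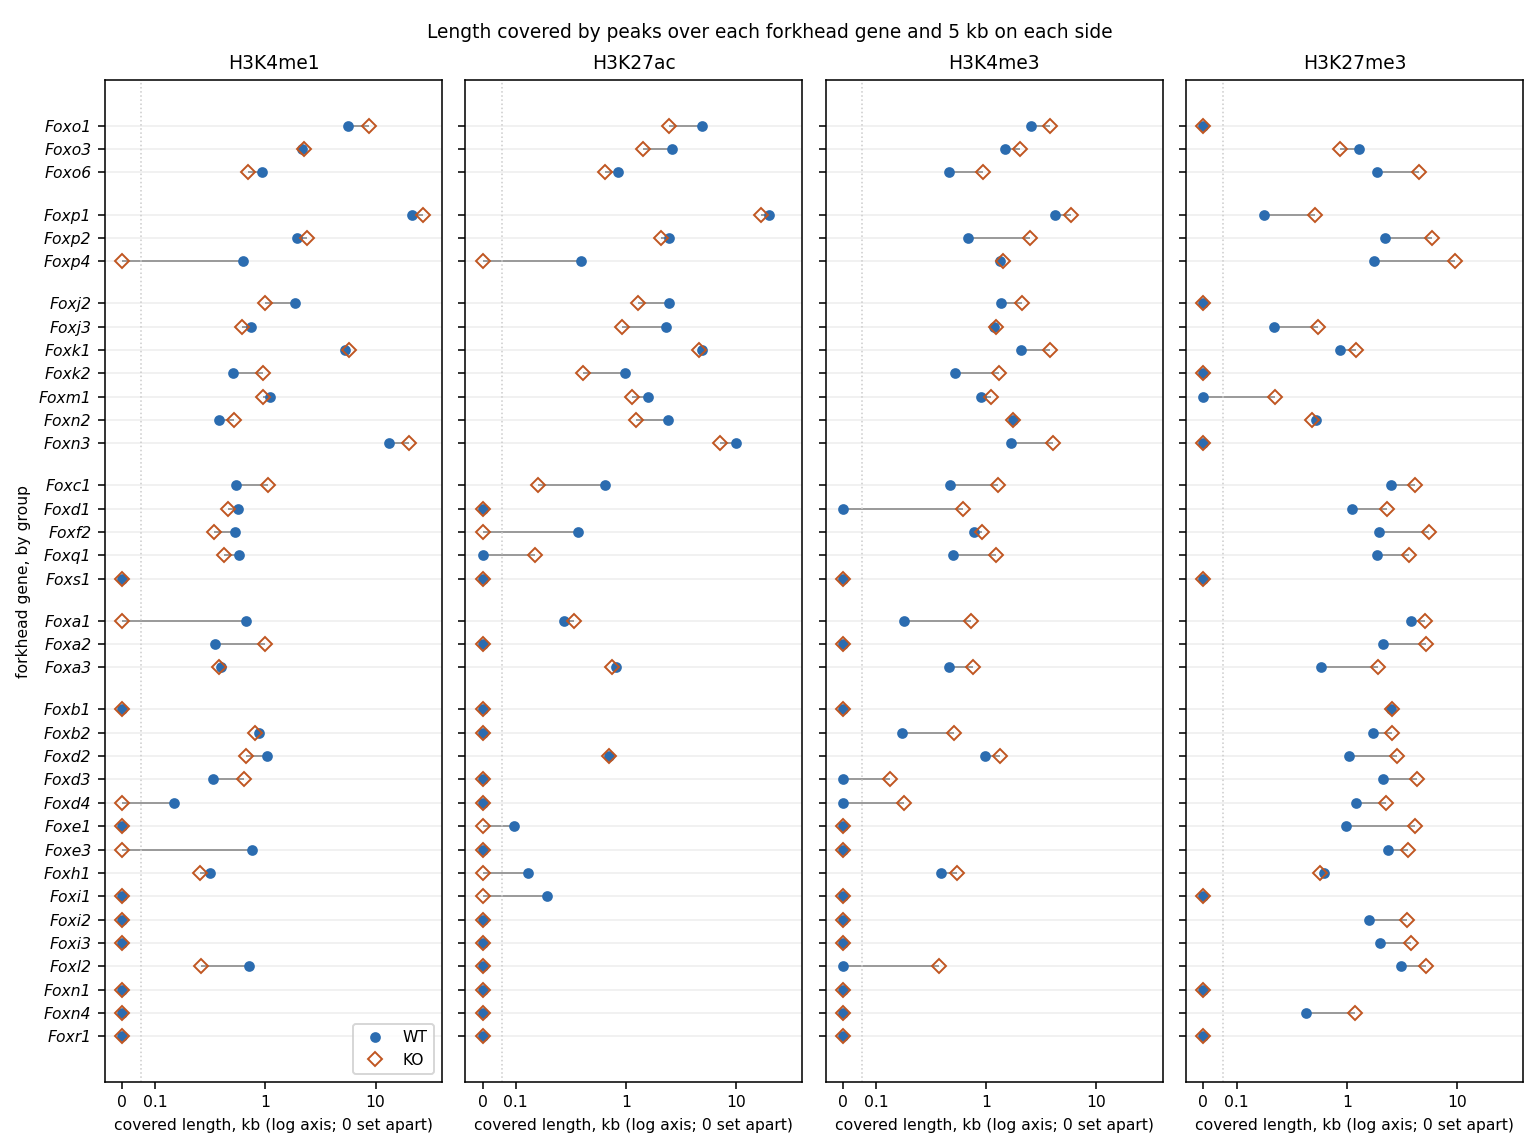
Bases covered by peaks of each mark over each forkhead gene and 5000 bp on either side, WT and KO side by side in kb on a log axis for the genes named in the text, with 0 set apart. Counted over the whole family, H3K27me3 coverage is longer in KO at 26 of 29 genes with the mark, and Foxp4 has the longest KO value, 9657 bp.

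A gene was counted as marked in 1 genotype alone when its window held a peak in that list and none in the other. For H3K4me3, 5 of the 37 genes were marked in KO alone (13.5%, interval 4.54 to 28.8%), against 8.54% of all genes, and none in WT alone, against 1.39%. They included Foxd1, Foxd3, Foxd4 and Foxl2. At equal list length 2 were left, Foxd1 among them, and with the gene body alone 8 genes were marked in KO alone. For H3K27ac, Foxe1, Foxf2, Foxh1, Foxi1 and Foxp4 were marked in WT alone, which is 5 of 37 (13.5%) against 9.05% of all genes and 1 gene at equal list length, and Foxq1 in KO alone against a background of 1.47%. For H3K4me1, Foxa1, Foxd4, Foxe3 and Foxp4 were marked in WT alone, against 7.33% of all genes, and 1 gene in KO alone, against 1.95%. For H3K27me3, Foxm1 was the only gene marked in KO alone, with a background of 9.23%, and none was marked in WT alone, with a background of 3.84%. Each background share lies within the interval that 37 genes give, so these counts do not set the family apart from other genes.

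**Figure D3:**
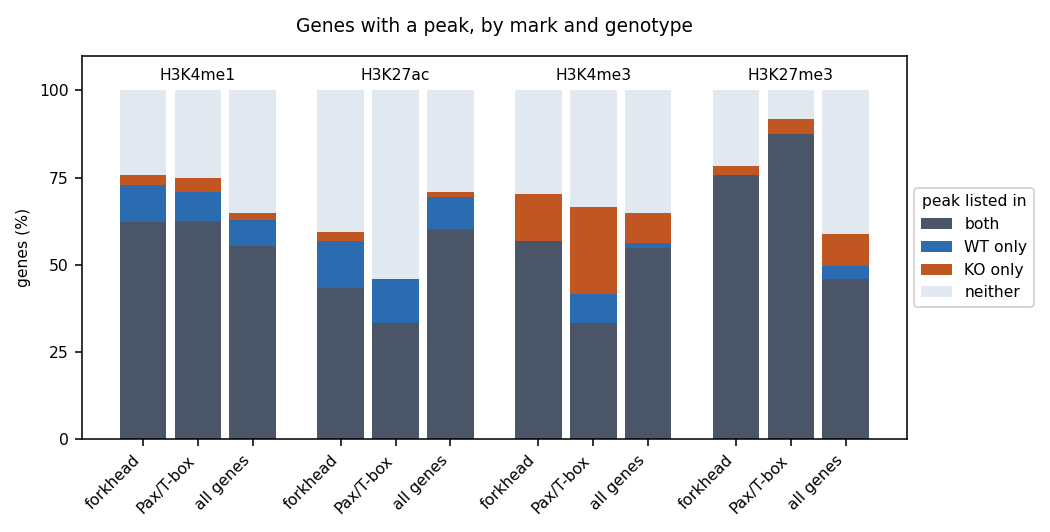
Share in percent of the 37 forkhead genes, and of all genes, that carry each mark in both lists, in WT alone, in KO alone or in neither. For H3K4me3 the KO-only share is 13.5% of forkhead genes against 8.54% of all genes.

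The 12 genes with H3K27me3 in both lists and H3K27ac in neither included Foxa2, Foxb1, Foxb2, Foxd1, Foxd3, Foxd4, Foxe3, Foxi2, Foxi3, Foxl2 and Foxn4, and are mostly regulators of other lineages. All 5 genes with H3K4me3 in KO alone were among them (41.7% of 12, interval 15.2 to 72.3%), against 18.0% of the 1414 genes in the genome with the same pair of states. None of the 12 had it in WT alone, against 4.60%. The 18.0% lies within the interval given, and the difference was not tested. Foxd1, a gene of stromal progenitors in the kidney and elsewhere, lies on chromosome 13 from 98354245 to 98356705. It had a KO H3K4me3 peak of 616 bp over its start and none in WT. That peak lay inside H3K27me3 peaks of 827 bp in WT and 906 bp in KO and overlapped H3K4me1 peaks of 565 and 460 bp. Foxd1 also had a KO H3K27me3 peak of 1241 bp upstream with no WT partner. The stretch of Foxd1 printed above lies mostly inside that KO H3K4me3 peak. Narrower KO peaks were listed at Foxl2, a gene of the ovary, with 173 and 198 bp, at Foxd3 with 133 bp and at Foxd4 with 180 bp. Of the KO H3K4me3 peaks at the 5 genes, that of Foxd1 was thus the widest. With peaks of at least 200 bp, no H3K4me3 peak was counted at Foxl2, Foxd3 or Foxd4.

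H3K27me3 coverage was longer in KO at each of the 12, against 89.2% of the 1414 genes with the same pair of states. Foxl2 had 3122 bp in WT and 5207 bp in KO, Foxd3 2154 and 4301 bp, and Foxd1 1115 and 2301 bp. Foxi3, a gene of the ear and skin placodes, had 1995 and 3856 bp, Foxe3, a gene of the lens, 2347 and 3571 bp, and Foxn4, a gene of retinal progenitors, 424 and 1186 bp. Foxb1, a gene of the developing brain, was the nearest to equal, with 2519 bp in WT and 2582 bp in KO, and 2519 and 2055 bp at equal list length. Over the gene body alone, Foxd1 had 704 bp in WT and 489 bp in KO. Foxe3 also had a WT H3K4me1 peak of 763 bp and none in KO. Foxd4 had H3K27me3 over 1212 and 2293 bp, and a WT H3K4me1 peak of 147 bp with none in KO.

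At the starts themselves, taken as 1000 bp to either side (of either end of the gene where no start was matched), H3K4me3 was in KO alone at 7 genes (18.9%, interval 7.96 to 35.2%), against 6.75% of all genes. Foxa1 and Foxb2 joined the 5 counted above. None had it in WT alone, against 0.615%. H3K4me1 was at the start in WT alone at 8 genes (21.6%, interval 9.83 to 38.2%), against 10.1% of all genes, and in KO alone at none, against 2.23%. Those genes were Foxa1, Foxd4, Foxe3, Foxj2, Foxj3, Foxk1, Foxo1 and Foxp4. H3K27ac was there in WT alone at Foxa1, Foxh1 and Foxp4 (background 5.09%) and in KO alone at Foxp2 and Foxq1 (background 1.76%). H3K27me3 was there in KO alone at Foxa2, Foxf2 and Foxm1 (background 8.07%) and in WT alone at none (background 3.55%). The starts thus held H3K4me3 in more genes in KO and H3K4me1 in fewer. The background lies just under the interval for H3K4me3 in KO alone and within it for H3K4me1 in WT alone, and neither difference from other genes was tested.

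The forkhead starts with H3K4me3 in both lists had the highest median CpG content. Those with it in KO alone and in neither lay near each other, with overlapping ranges. The 11 forkhead starts with H3K4me3 in both lists held a median of 29 CpG (range 11 to 48), the 7 with it in KO alone held 12 (3 to 22), and the 12 with it in neither held 10 (3 to 24). Over all genes the medians were 18, 13 and 3. The forkhead starts without H3K4me3 were thus richer in CpG than other such starts. The 12 include the matched start of Foxn3, with 5 CpG, which lies inside the gene. H3K4me3 peaks of 428 bp in WT and 1714 bp in KO lay about 112 to 114 kb upstream of it, near the end of the gene. The counts at starts above use the same Foxn3 start. Starts of a gene share its window, and the order is a description with no test.

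Foxp4, a FOXP repressor with roles in lung and gut, had the longest H3K27me3 coverage of the family in KO. It lies on chromosome 17 from 47867133 to 47924632 on the minus strand. H3K27me3 had 2 peaks over 1777 bp in WT and 10 peaks over 9657 bp in KO, a gain of 7880 bp that ranks 37 among 20665 genes (0.179%). The peak at the Foxp4 start was of like width in both, 1371 bp in WT and 1342 bp in KO, and lay over an H3K4me3 peak of 1335 bp in WT and 1271 bp in KO. The gain lay inside and just past the gene, in 8 peaks without a WT partner. The widest covered 3436 bp at 44.6 to 48.1 kb from the start, 1 of 1643 bp lay at 15.0 to 16.7 kb and 1 of 1087 bp at 34.6 to 35.7 kb. Over the same window, WT H3K4me1 peaks of 334 and 297 bp and WT H3K27ac peaks of 139, 116 and 140 bp had no KO counterpart. Foxp4 was the single forkhead gene with H3K4me1 and H3K27ac both in WT alone, against 1.10% of all genes, and 153 genes (0.740% of all) had longer H3K27me3 in KO besides. Its H3K4me3 at the start was present in both, beside a further KO peak of 154 bp. At equal list length, Foxp4 H3K27me3 was 1777 bp in WT and 9476 bp in KO, but its H3K27ac peaks, all under 200 bp, were no longer counted.

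**Figure D4:**
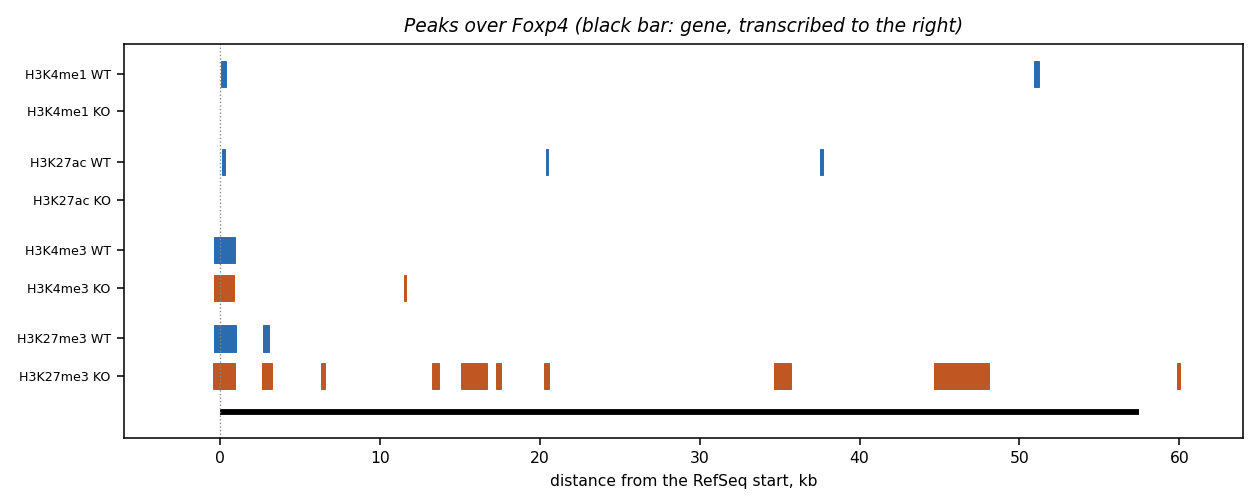
Peaks of the 4 marks over Foxp4 in WT and KO against distance from its start in kb. The KO H3K27me3 row has 10 bars, the widest 3436 bp at 44.6 to 48.1 kb, and the H3K4me3 bars over the start are 1335 bp in WT and 1271 bp in KO.

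Foxp2, a gene of the brain and the lung airway, lies on chromosome 6 from 14901349 to 15441977. Its H3K27me3 had 3 peaks over 2240 bp in WT and 10 peaks over 5974 bp in KO, rank 271 by gain, and 4640 bp in KO at equal list length. At the end of Foxp2 with the lower coordinate, a WT peak of 1780 bp faced a KO peak of 2396 bp. H3K4me3 at Foxp2 had 3 peaks over 680 bp in WT and 5 peaks over 2473 bp in KO, so that both marks were longer in KO. H3K27ac had 11 peaks over 2490 bp in WT and 7 over 2066 bp in KO, but at equal list length 1841 bp in WT and 2066 bp in KO. Of these, 1 peak of 226 bp in WT and 304 bp in KO was shared, while KO had a peak of 444 bp at that same end where WT had none.

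Foxp1, the FOXP gene expressed in many tissues, is the longest of the set at 597 kb and held the most peaks. H3K4me1 had 51 peaks over 21334 bp in WT and 54 over 27024 bp in KO, and H3K27ac had 44 over 19817 bp and 40 over 16761 bp. H3K4me3 had 6 peaks over 4166 bp in WT and 14 over 5920 bp in KO, while H3K27me3 was a single peak of 179 bp in WT and 517 bp in KO. Foxp1 has 3 RefSeq starts, which differed from each other. At the most upstream start of Foxp1 the H3K4me3 peak was 1472 bp in WT and 1465 bp in KO. At the middle one it was absent in WT and 259 bp in KO, in a stretch with 3 CpG. At the third, with 34 CpG, the H3K4me3 peak over the start was 1895 bp in WT and 1010 bp in KO. Within the distance used for the counts at starts, the third had 1 H3K4me3 peak in WT and 2 in KO. The 1010 bp therefore leave out the other KO peak and are not the whole KO coverage there. The H3K27ac peaks over the Foxp1 starts, in that order, were 1489, 939 and 925 bp in WT and 1044, 965 and 974 bp in KO. Summed over Foxp1, Foxp2 and Foxp4, H3K27me3 covered 4196 bp in WT and 16148 bp in KO, a ratio of 3.85.

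The FOXO genes carried active marks in both genotypes, with less H3K27ac in the KO list. Over Foxo1, Foxo3 and Foxo6 together H3K27ac covered 8384 bp in WT and 4545 bp in KO, a ratio of 0.542, and was longer in WT at all 3, against 74.8% of all genes with the mark. Foxo1, a FOXO regulator of endothelial growth, lies on chromosome 3 from 52268337 to 52350109. Its H3K27ac had 13 peaks over 4905 bp in WT and 6 over 2461 bp in KO, with 7 WT peaks lacking a KO partner and no KO peak lacking a WT one. At equal list length, 10 WT peaks over 4446 bp stood against the same 6 in KO. H3K4me1 at Foxo1 went the other way, with 13 peaks over 5679 bp in WT and 15 over 8745 bp in KO. The H3K4me3 peak over the Foxo1 start was 1299 bp in WT and 2820 bp in KO. That KO peak also met a second WT peak of 1033 bp, at 1.20 to 2.23 kb from the start. The H3K27ac peak over the Foxo1 start was 645 bp in WT and 560 bp in KO. No H3K27me3 peak was listed over Foxo1 in either genotype. Of the WT H3K27ac peaks without a KO partner, those of 167 and 742 bp lay within 2.14 kb of the Foxo1 start and the other 5 between 20.4 and 63.0 kb from it.

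Foxo3, a FOXO gene of stress resistance and quiescence, had 8 H3K27ac peaks over 2626 bp in WT and 2 over 1437 bp in KO. Its H3K27ac peak over the start was 625 bp in WT and 746 bp in KO, and H3K4me3 covered 1483 and 2006 bp in 3 peaks each. H3K27me3 over Foxo3 was 1284 bp in WT and 875 bp in KO, against the direction of the family. Foxo6, a FOXO gene best known in brain and liver, had H3K27me3 over 1866 bp in WT and 4565 bp in KO, H3K4me3 over 457 and 933 bp, and H3K27ac over 853 and 647 bp. Foxo6 thus held both the active and the Polycomb mark in each list.

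**Figure D5:**
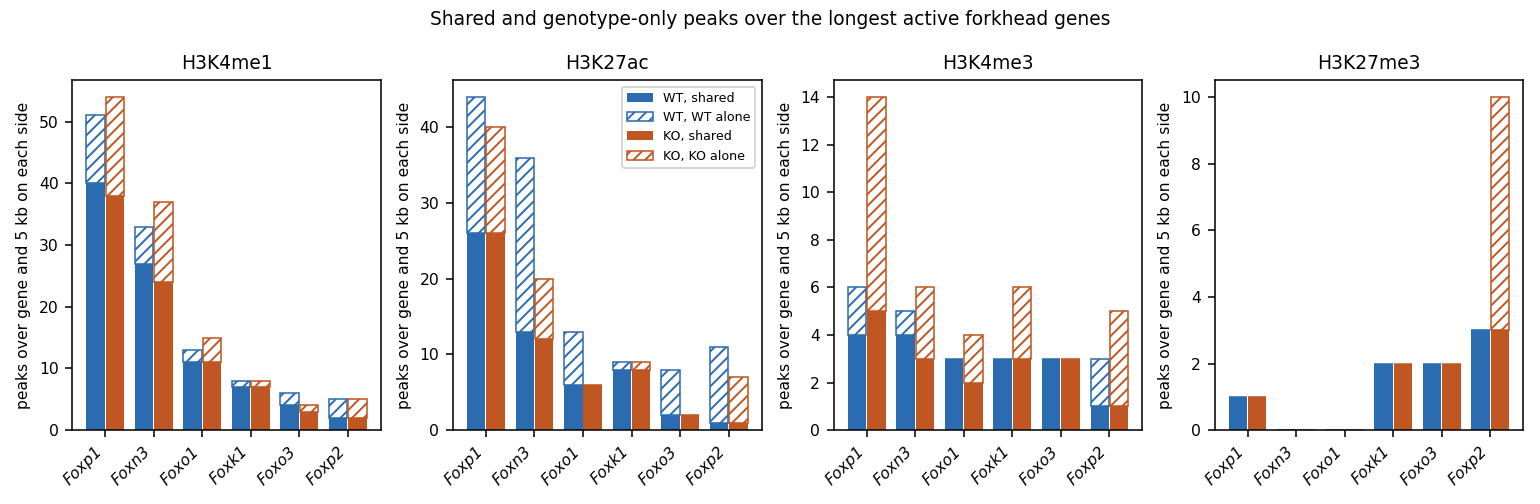
Numbers of peaks of each mark over the long genes Foxp1, Foxn3, Foxo1, Foxk1, Foxo3 and Foxp2 in WT and KO, split into peaks that meet a peak of the other genotype and peaks that do not. Foxo1 has 13 H3K27ac peaks in WT, 7 of them without a KO partner, and 6 in KO.

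The genes of the PI3K, AKT and FOXO pathway gave the setting for the FOXO genes. All 30 genes listed, from the receptor Tek and the kinases to FOXO targets such as Klf2 and Cdkn1b, had H3K27ac and H3K4me3 in both lists. H3K27ac was longer in WT at 19 and in KO at 10 of the 30, with a summed ratio of 0.885, and H3K4me3 was longer in KO at 22, with a ratio of 1.35. The shares over all genes were 74.8% and 80.0%. Akt1, a kinase that excludes FOXO proteins from the nucleus, had H3K27ac over 1892 bp in WT and 657 bp in KO and H3K4me3 over 1494 and 3091 bp. Klf2, a flow-responsive factor of endothelium, had H3K27ac over 1747 and 1013 bp, while Txnip, a FOXO target of redox control, had 1535 and 2192 bp. H3K27me3 was in both lists at 24 of the pathway genes, with a summed ratio of 1.27. It was in WT alone at 2, Skp2 among them (3.84% of all genes), and in KO alone at Akt1, Crebbp and Ep300 (9.23% of all genes).

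The 7 broadly expressed members Foxj2, Foxj3, Foxk1, Foxk2, Foxm1, Foxn2 and Foxn3 had H3K4me3 and H3K27ac in both lists, and H3K27ac was longer in WT at all 7, against 73.3% of the 10721 genes with both marks in both lists. At Foxm1 most of this lay over neighbouring genes, as given below. Their H3K27ac covered 24820 bp in WT and 16763 bp in KO, a ratio of 0.675, while H3K4me3 covered 9437 and 15341 bp. Foxn3, a transcriptional repressor of 374 kb linked to the cell-cycle checkpoint, had 36 H3K27ac peaks over 10096 bp in WT and 20 over 7112 bp in KO. Most of the surplus at Foxn3 was narrow, since at equal list length it had 19 peaks in WT and 20 in KO. Its H3K4me1 had 33 peaks over 13340 bp in WT and 37 over 20101 bp in KO, and its H3K4me3 1692 and 4034 bp. Foxn2 had 6 H3K27ac peaks over 2437 bp in WT and 2 over 1245 bp in KO, with H3K4me3 of 1732 and 1731 bp.

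Foxk1, a repressor of autophagy genes in the fed state, was the broadly expressed gene with the nearest to equal H3K27ac, 9 peaks over 4933 bp in WT and 9 over 4636 bp in KO. Its H3K4me3 had 3 peaks over 2077 bp in WT and 6 over 3818 bp in KO, and H3K4me1 had 8 peaks in each over 5284 and 5778 bp. Foxk2, its relative, has the start richest in CpG of the set, with 48, where the H3K4me3 peak was 515 bp in WT and 1291 bp in KO and the H3K27ac peak 818 and 409 bp. Foxj2 had H3K4me3 over 1360 bp in WT and 2122 bp in KO and H3K27ac over 2479 and 1299 bp. Foxj3 had H3K4me3 over 1170 and 1234 bp and H3K27ac over 2308 and 915 bp. Foxm1, a driver of genes of mitosis, had H3K4me3 over 891 and 1111 bp and H3K27ac over 1580 and 1147 bp, with the 222-bp H3K27me3 peak in KO alone. The H3K4me1 peaks of Foxm1 covered 1093 bp in WT and 943 bp in KO. The Foxm1 window also holds Rhno1 and Tex52. Without peaks over those genes, Foxm1 had no H3K4me3 or H3K27me3 in either list and H3K27ac over 192 and 186 bp. H3K4me3 was longer in KO at 6 of the 7, against 80.0% of all genes with it, and Foxm1 is counted among the 6 by peaks over its neighbours.

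Among the members tied to vessels and mesenchyme, all but Foxs1 carried H3K27me3 together with H3K4me3 in the KO list. Foxc1, a regulator of vascular and ocular mesoderm, lies on chromosome 13 from 31806646 to 31810635. Over the Foxc1 start, H3K4me3 was 470 bp in WT and 1289 bp in KO and H3K27me3 997 and 1841 bp, while H3K27ac was 650 bp in WT, over the start, and 158 bp in KO. Over the whole Foxc1 window H3K27me3 was 2545 bp in WT and 4180 bp in KO, and H3K4me1 546 and 1057 bp. Both opposing marks were longer, and the acetyl mark shorter, in the KO list.

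Foxf2, a gene of mesenchyme and pericytes, lies on chromosome 13 from 31625816 to 31631406. Its H3K27me3 covered 1969 bp in WT and 5565 bp in KO, rank 296 by gain, with a KO peak of 590 bp over the start that had no WT partner. The WT H3K27ac peaks at Foxf2, of 139 and 227 bp, had no KO counterpart, and an H3K4me3 peak inside the gene was 769 bp in WT and 913 bp in KO. Foxq1, on the same chromosome from 31558170 to 31560976, had a KO H3K27me3 peak of 3262 bp that spanned WT peaks of 897 and 443 bp. H3K4me3 at Foxq1 was 499 bp in WT and 1227 bp in KO, beside a KO H3K27ac peak of 149 bp. Foxs1, a gene of pericytes, had no peak of any mark in either list.

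The endoderm genes differed among themselves. Foxa1, on chromosome 12 from 57540628 to 57548029, had H3K27me3 over 3816 bp in WT and 5116 bp in KO. Over the gene body alone it was 1900 bp in WT and 1427 bp in KO, and without peaks over the neighbour Ttc6 2501 and 2962 bp. A KO H3K4me3 peak of 734 bp lay over the Foxa1 start, where WT had none, while its WT H3K4me1 of 671 bp had no KO counterpart. The WT H3K4me3 at Foxa1 was a peak of 180 bp elsewhere in the window. Foxa2 had no H3K4me3 or H3K27ac in either list, and H3K27me3 over 2132 bp in WT and 5211 bp in KO, with a KO peak of 3003 bp that spanned 2 WT peaks. Foxa3 had H3K4me3 over 459 and 760 bp, H3K27ac over 820 and 750 bp and H3K27me3 over 580 and 1924 bp, in a window it shares with Sympk. Without peaks over Sympk, Foxa3 had no H3K4me3 or H3K27ac in either list and H3K27me3 over 258 and 1562 bp.

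The rest of the family was of other lineages. Foxe1, a gene of the thyroid, had H3K27me3 over 976 bp in WT and 4195 bp in KO and a WT H3K27ac peak of 97 bp. Foxd2 had H3K4me3 over 966 and 1329 bp, H3K27ac over 696 and 699 bp and H3K27me3 over 1055 and 2834 bp. Foxb2 had H3K4me3 over 170 and 513 bp and H3K27me3 over 1716 and 2570 bp. Foxd2 was the member of this group with active marks of the widest reach in both lists. Foxh1, a Smad partner in nodal signalling, had H3K4me3 over 391 and 542 bp and a WT H3K27ac peak of 130 bp, in a window shared with Kifc2 and Ppp1r16a. Without peaks over those neighbours, the H3K27ac peak was all that Foxh1 had. Foxi1, a gene of ionocytes, had a single peak in all lists, of 192 bp in the WT H3K27ac list. Foxn1, the regulator of thymic epithelium, and Foxr1 had none.

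H3K4me1 peaks of both genotypes were merged into regions, called active where H3K27ac overlapped them in the same genotype and primed where it did not. Over the forkhead genes there were 194 regions, of which 51 were active in both (26.3%, against 39.4% of 59665 regions genome-wide) and 36 primed in both (18.6%, against 10.8%). Another 13 were active in WT but primed in KO (6.70%, against 5.83%) and 6 the reverse (3.09%, against 4.76%). Regions listed in KO and not in WT numbered 44 primed (22.7%, against 16.6%) and 3 active (1.55%, against 3.15%), and 28 primed and 13 active regions were in WT alone (14.4% and 6.70%, against 12.6% and 6.86%). H3K4me3 met 24 of the regions in KO alone (12.4%, against 10.1%) and none in WT alone (0.858% genome-wide). Foxp1 held 65 of the regions, Foxn3 43 and Foxo1 17, so the shares lean on these 3 loci. In Foxn3, 10 regions were active in both and 13 primed in KO alone, and in Foxp1 19 and 14.

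The Pax and T-box genes, which also encode lineage regulators, were taken as the nearest set for comparison. Of 24 such genes, 6 had H3K4me3 in KO alone (8.54% of all genes) and 2 in WT alone (1.39% of all genes). H3K27me3 was longer in KO at 21 of 22 with the mark (75.9% of all genes with it), with a summed ratio of 1.78 against 2.04 for the forkhead genes. The H3K4me3 ratio was 2.01 in the Pax and T-box set and 1.71 in the forkhead set, that of H3K27ac 0.852 and 0.714, and that of H3K4me1 0.905 and 1.22. The H3K4me1 ratios lay on opposite sides of equality, and no difference between the sets was tested.

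Markers were examined for the sorted cells as a whole. All 8 endothelial markers had H3K4me3 and H3K27ac in both lists, with H3K4me3 of 734 to 2537 bp in WT and 760 to 4704 bp in KO. Leukocyte markers had H3K4me3 at 0 of 5 in both lists, and epithelial markers at 1 of 5 in WT and 2 of 5 in KO (1074 and 1407 bp summed), with Cdh1, Krt8 and Nkx2-1 at 0 in both. The epithelial H3K4me3 was at Sftpc, with 1074 bp in WT and 1143 bp in KO, and at Epcam in KO alone, with 264 bp. Epithelial H3K27ac was at Sftpc, with 788 bp in WT and 733 bp in KO, and at Cdh1, with 1356 and 729 bp. H3K27ac was at 2 of 5 epithelial markers in each list (2144 and 1462 bp summed), at 3 mesenchymal markers in WT and 2 in KO (539 and 476 bp), and at 1 leukocyte marker in WT (102 bp) and 0 in KO. Mesenchymal markers had H3K4me3 at 0 of 5 in WT and 3 of 5 in KO (939 bp summed, from 0 to 729 bp a gene, with Pdgfrb and Tbx4 at 0), and their H3K27me3 was 6973 bp in WT and 18799 bp in KO. The part of other cells in the H3K4me3 of Foxd1, Foxc1 and Foxf2 was not tested. Another protein-coding gene lies in 10 of the 37 windows. Leaving out peaks over it removed H3K4me3 from Foxm1, Foxh1 and Foxa3 in both lists and left all 4 marks at Foxj2, Foxj3, Foxk2 and Foxn4 as they were. A peak over both genes cannot be given to one of them. Dnmt3a itself was not checked, since peaks of these marks do not show a deletion.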

How the data were processed

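The values are the submitters' deposited peak lists, with chromosome, first base, last base and width in bp, on mm10. The authors' deposited values are positions and widths, unit class other, and no rescaling was applied. The submitters' processing notes name MACS2 2.1.2.1, Bowtie2 2.2.6, deepTools 3.1.1, SAMtools, cutadapt 1.14 and Trim Galore 0.4.4, and the builds mm10 and R64 (yeast). The role of a tool, the peak threshold and any pooling of the 3 samples behind a list were not given in the sources used here. A lower threshold or deeper library would lengthen a list. H3K9me3 is not analysed here.

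Lists were joined to RefSeq genes with pandas 2.3.3, numpy 2.4.6 and scipy 1.17.1 in Python 3.11.15, and figures used matplotlib 3.10.9. Shared peaks overlap by at least 1 bp. Coverage is the union of peaks inside the window. Intervals are exact Clopper-Pearson at 95% and cover counting error only. The overlap step was tested on copies of the WT lists with peaks shifted or left out. The counting step was tested against an exhaustive search of random windows.

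The members could be named, apart from the exception below, with fullest values for those marked in a single genotype and for the FOXO, FOXP, broadly expressed and vascular or mesenchymal groups. The rule for members reads symbols alone, but the family, gene lists and comparisons were proposed with earlier results of these data known, so none was a blind choice. Alternatives were other windows, peaks of at least 200 bp, equal numbers of the widest peaks, peaks over another gene left out and a 50% overlap. The values of 1 forkhead gene and 1 pathway gene are counted in the sums and not reported here.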

Additional observations from a re-analysis of the deposited data

How the results depend on the processing

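Of 99 values recomputed under other settings, 73 stayed within their counting interval or 1.5 times their count and 26 moved. At equal list length (the longer list reduced to its widest peaks), the KO share over forkhead genes was 50.2% for H3K27ac and 49.1% for H3K27me3, H3K27ac was in WT alone at 1 gene, H3K4me3 in KO alone at 2 (Foxd1 among them) and H3K27me3 in KO alone at 0. Under that setting the KO share for H3K4me3 was 53.4%, within its interval. The WT peaks that met a KO peak were then 62.0% for H3K27ac and 80.5% for H3K27me3, and the KO H3K4me3 peaks that met a WT peak were 66.0%. With peaks of at least 200 bp, KO-alone genes were 2 for H3K4me1, 0 for H3K27ac and 2 for H3K27me3, H3K27ac was in WT alone at 3, KO H3K27ac peaks that met a WT peak were 77.5%, and WT peaks that met a KO peak were 54.1% for H3K27ac and 93.5% for H3K4me3. With no flank, KO-alone genes were 2 for H3K4me1, 0 for H3K27ac and 8 for H3K4me3, and with a flank of 10000 bp 0 for H3K27ac and 0 for H3K27me3. Without peaks over another gene, they were 2 for H3K27ac and 0 for H3K27me3. With an overlap of 50%, KO peaks that met a WT peak were 58.8% for H3K4me1, 32.4% for H3K4me3 and 41.8% for H3K27me3, and WT H3K27ac peaks that met a KO peak 36.4%. The cause was not tested. Alternatives for coverage were chosen after seeing the data: H3K27me3 was longer in KO at 24 to 29 genes, H3K4me3 longer in KO at 21 to 25, and H3K27ac longer in WT at 14 to 21.

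No paired analysis was possible because each group has 1 list, and for the same reason leaving out each replicate was not run. Depth and peak thresholds are unknown, so the length of a list cannot be told apart from genotype.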
